A study of Homo sapiens with 3 samples.

Results

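Nuclear-encoded subunits of the respiratory chain were followed in islet aggregates made from HUES8, a long-used line of human embryonic stem cells. Genes were taken by symbol: the NDUFA, NDUFB, NDUFC, NDUFS and NDUFV families of complex I, SDHA to SDHD of complex II, the UQCR family and CYC1 of complex III, the COX4 to COX8 families of complex IV, and the ATP5F1, ATP5M and ATP5P families of complex V. This gave 88 genes of 36601, with 37 counted to complex I, 4 to complex II, 10 to complex III, 19 to complex IV and 18 to complex V. NDUFA4 and NDUFA4L2, whose symbols come from complex I, were counted to complex IV, where the NDUFA4 protein sits. Assembly factors, 2 antisense genes and 1 divergent transcript with matching symbols were left out.

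Differentiated islet cells had been sorted on magnetic beads with an antibody to CD49a, the integrin subunit that ITGA1 encodes. CD49a-positive, CD49a-negative and unsorted cells were each put into new aggregates for 7 days and then sequenced as droplet single-cell libraries, 1 library per group. The labels name the same line, tissue and differentiation for all 3 groups and state no drug or gene edit. With 1 library per group there were no replicates, so no test was made, and the 95% intervals given below cover counting error alone. The kept cells numbered 2394 CD49a-positive, 1976 CD49a-negative and 2248 unsorted, with median depths of 48538.5, 36997 and 42257.5 UMIs (counted molecules) per cell in that order. ITGA1 stood at 108 CPM (UMIs per 1000000 UMIs summed over the library's cells) in CD49a-positive, 33.2 CPM in CD49a-negative and 66.2 CPM in unsorted cells. The hormone genes INS and GCG were present in all 3 libraries, and pairs of libraries shared 2 to 6 cell barcodes.

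Complexes I to IV of the inner mitochondrial membrane pass electrons from NADH and succinate to oxygen, and complexes I, III and IV pump protons. Complex V, the ATP synthase, uses the proton gradient to make ATP. All of complex II and most subunits of the other complexes are encoded in the nucleus, translated in the cytosol and imported, while the mitochondrial genome encodes a core set of complexes I, III, IV and V. In beta cells the ATP made from glucose closes potassium channels and leads to insulin release, and respiratory capacity is a common measure of how mature stem-cell-derived islets are.

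Promoters of respiratory genes are known for sites of NRF1 and of ETS factors such as GABPA. The 250 bases before the start of 5 members are shown because these genes were among those that differed together between the sorted libraries, and because they span promoters with both kinds of site and with neither. The sequences are from RefSeq, build GRCh38.p14, 5′ to 3′ on the gene's own strand. Capitals mark the NRF1 motif (GCGCA followed by its reverse complement, so it reads alike on both strands) or the ETS motif CCGGAAG on either strand. The windows are chr4:139302552-139302801 (minus strand, NDUFC1), chr2:97645812-97646061 (plus, COX5B), chr11:63974370-63974619 (plus, COX8A), chr19:1605463-1605712 (minus, UQCR11) and chr3:120596086-120596335 (plus, NDUFB4).
NDUFC1: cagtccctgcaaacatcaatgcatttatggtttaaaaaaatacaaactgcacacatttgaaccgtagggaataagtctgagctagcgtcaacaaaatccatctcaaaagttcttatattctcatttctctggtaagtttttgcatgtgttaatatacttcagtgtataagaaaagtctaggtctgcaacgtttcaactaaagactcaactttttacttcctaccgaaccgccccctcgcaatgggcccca
COX5B: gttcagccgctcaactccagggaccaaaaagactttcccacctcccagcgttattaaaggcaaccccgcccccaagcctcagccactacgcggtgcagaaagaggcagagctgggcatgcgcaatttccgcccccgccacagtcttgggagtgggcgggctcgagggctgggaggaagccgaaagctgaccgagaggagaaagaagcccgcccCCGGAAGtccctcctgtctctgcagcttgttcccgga
COX8A: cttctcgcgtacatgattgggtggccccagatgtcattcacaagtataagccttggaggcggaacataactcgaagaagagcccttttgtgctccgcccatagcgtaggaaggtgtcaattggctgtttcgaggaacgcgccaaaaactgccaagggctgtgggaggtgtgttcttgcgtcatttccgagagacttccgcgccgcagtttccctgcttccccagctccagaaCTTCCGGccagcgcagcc
UQCR11: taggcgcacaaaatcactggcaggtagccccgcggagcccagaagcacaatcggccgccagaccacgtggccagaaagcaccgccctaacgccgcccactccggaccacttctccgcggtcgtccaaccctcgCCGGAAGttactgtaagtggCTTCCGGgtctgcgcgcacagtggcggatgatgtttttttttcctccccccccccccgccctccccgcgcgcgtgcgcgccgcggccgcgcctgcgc
NDUFB4: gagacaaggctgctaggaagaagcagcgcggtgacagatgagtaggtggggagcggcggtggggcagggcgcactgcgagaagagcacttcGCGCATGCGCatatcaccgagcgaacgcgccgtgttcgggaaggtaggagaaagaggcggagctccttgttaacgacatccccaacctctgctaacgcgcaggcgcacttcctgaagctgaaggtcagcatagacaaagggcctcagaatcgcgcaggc

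A promoter was found for 69 of the 88 members. The ETS motif occurred in 17 of them (24.6%), against 8.82% of all 27305 human promoters of the same length. For the NRF1 motif the counts were 3 members (4.35%, NDUFB4, ATP5F1C and SDHD), against 1.13% of all promoters, and for the YY1 motif AAGATGGC 1 member (1.45%), against 1.37%. SDHD alone held both the ETS and the NRF1 motif, and they did not overlap. Median GC content was 61.6% in the members' promoters and 58% in all. These matches describe letters and not bound sites. NDUFC1, whose window held none of the 3 motifs, and COX5B, with 1 ETS motif 37 bases before its start, were both among the members farthest below 0 in the next comparison.

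The first comparison asks whether the respiratory subunit genes differed between CD49a-positive and CD49a-negative cells as a whole. Nearly all of them were lower in CD49a-positive cells. Summed over the 88 genes, the level was 14215 CPM (exact Poisson interval 14194 to 14236) in CD49a-positive, 19465 CPM (19435 to 19494) in CD49a-negative and 16631 CPM (16607 to 16656) in unsorted cells. They made up 1.42%, 1.95% and 1.66% of all UMIs in that order, and the CD49a-positive to CD49a-negative ratio was 0.730 (0.729 to 0.732). In UMIs per cell, which the depth of each library moves, the values were 727, 833 and 810.2.

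Of the 88 members, 79 reached a mean of 10 CPM over the libraries and entered log2 ratios, for which 10 CPM were added in each library, a step that understates the change of low genes. Their median log2 ratio of CD49a-positive over CD49a-negative was -0.47, against -0.03 for all 10188 genes that met the same minimum. Below 0 lay 78 of the 79 members, against 55.2% of all genes, and 61 had a ratio of 0.8 or less (with the 10 CPM added), against 11.8% of all genes. At least 25% higher were 0 members, against 5.99% of all genes, and at a ratio of 0.5 or less 0 members, against 0.402%. From low to high, the order CD49a-positive, unsorted, CD49a-negative held for 75 of the 79. Within the cell classes described below it held for 74 of 79 in enterochromaffin-like, 70 in alpha-like and 12 in beta-like cells. None of these counts was made over all genes. These limits are rules of size and not of significance. The size rested on how cells were weighted: with every cell given equal weight the median was -0.21 and 19 members were at 0.8 or less (8.64% of all genes), and with equal weights for the clusters described below that held at least 10 cells in every library it was -0.20 with 7 members (2.19%). Equal weights for clusters of any size gave -0.24 with 13 members (3.18%).

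**Figure D1:**
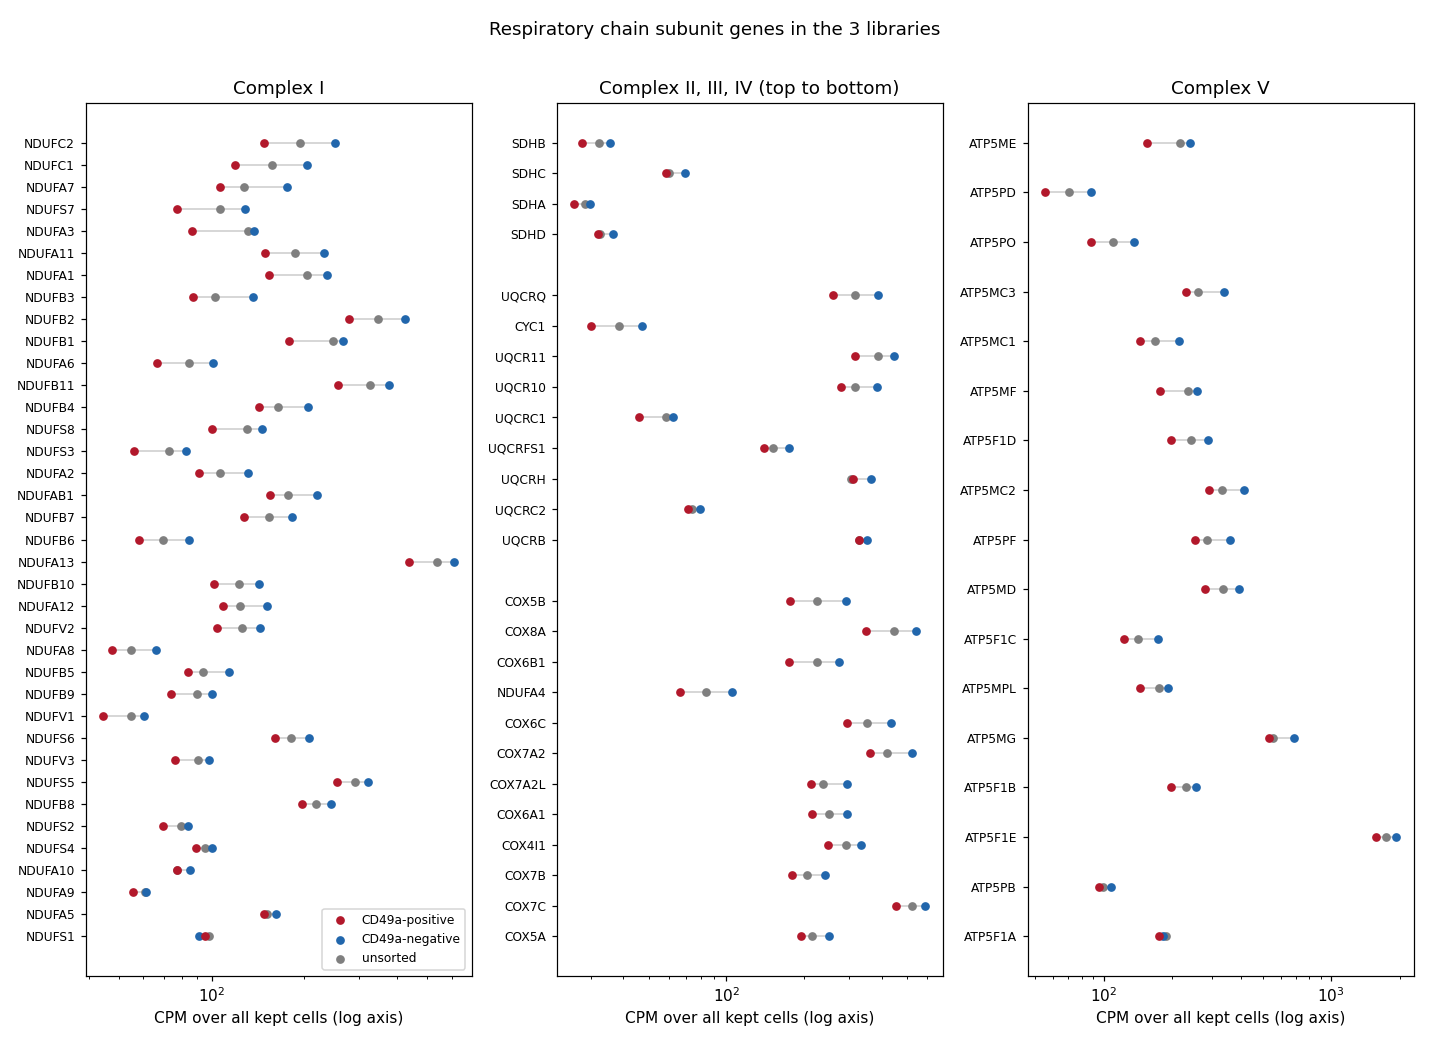
Level of each of the 79 members with a mean of at least 10 CPM (horizontal log axis, CPM over all kept cells), ordered within each complex by the log2 ratio of CD49a-positive over CD49a-negative, with 1 point per library. Points of CD49a-positive cells lie left of those of CD49a-negative cells for every member but NDUFS1. Unsorted cells lie between them for 75 of 79, a count that was not made over all genes.

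In complex I, which takes electrons from NADH, 36 of 37 members lay below 0 and 30 had a ratio of 0.8 or less, with a median log2 ratio of -0.47. NDUFC2 (chromosome 11, 78068304 to 78080219), an accessory subunit of the membrane arm, stood at 148 CPM in CD49a-positive, 252 CPM in CD49a-negative and 194 CPM in unsorted cells, a fold of 0.586 (0.575 to 0.598). Its partner subunit NDUFC1 (chromosome 4, 139266880 to 139302551) stood at 119 CPM in CD49a-positive, 203 CPM in CD49a-negative and 157 CPM in unsorted cells. By log2 ratio, these 2 genes lay farther below 0 than any other member.

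NDUFA7, an accessory subunit, had 107, 176 and 127 CPM in CD49a-positive, CD49a-negative and unsorted cells. NDUFS7, a core subunit that carries the last iron-sulfur cluster before ubiquinone, had 77.2, 129 and 107 CPM in the same order, a log2 ratio of -0.67. At the other end, the accessory subunit NDUFA5 had 148 CPM in CD49a-positive, 161 CPM in CD49a-negative and 151 CPM in unsorted cells. NDUFS1 (chromosome 2, 206114817 to 206159603), the largest core subunit, was the exception, with 95 CPM in CD49a-positive, 91.2 CPM in CD49a-negative and 97.9 CPM in unsorted cells and a log2 ratio of 0.05. The 7 core subunits had a median of -0.43 and the 30 accessory subunits one of -0.47.

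Complex II, which oxidises succinate and belongs to the tricarboxylic acid cycle as well, lay closest to the other genes. All 4 of its members were below 0, none had a ratio of 0.8 or less, and the median was -0.18. SDHB, the iron-sulfur subunit, had 27.6 CPM in CD49a-positive, 35.4 CPM in CD49a-negative and 32.2 CPM in unsorted cells. SDHC, a membrane anchor, had 58.2, 69.4 and 59.8 CPM in that order, and the other anchor SDHD had 31.9, 36.3 and 32.4 CPM. SDHA, the flavoprotein that binds succinate, had 25.8 CPM in CD49a-positive, 29.7 CPM in CD49a-negative and 28.3 CPM in unsorted cells, a log2 ratio of -0.15.

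Complex III, which passes electrons on to cytochrome c, had 9 of 9 measured members below 0 and 5 with a ratio of 0.8 or less, and a median of -0.37. UQCRQ, a small subunit, had 259.7 CPM in CD49a-positive, 388 CPM in CD49a-negative and 317 CPM in unsorted cells. CYC1, which encodes cytochrome c1, had 29.9, 47.2 and 38.5 CPM in that order. The small subunits UQCR11 and UQCR10 had log2 ratios of -0.49 and -0.45. UQCRB, a subunit near the ubiquinone site, and the core protein UQCRC2 differed least, at -0.10 and -0.13, with UQCRB at 326 CPM in CD49a-positive, 351 CPM in CD49a-negative and 327 CPM in unsorted cells.

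Complex IV, cytochrome c oxidase, had all 12 of its measured members at a ratio of 0.8 or less, and its median was -0.49. COX5B, a zinc-binding subunit on the matrix side, had 177 CPM in CD49a-positive, 291 CPM in CD49a-negative and 224 CPM in unsorted cells, a fold of 0.609 (0.598 to 0.620). COX8A had 347, 543 and 449 CPM in that order, and COX6B1, which faces the intermembrane space, had 176, 274 and 226 CPM. NDUFA4 had 66.5 CPM in CD49a-positive, 105 CPM in CD49a-negative and 83.6 CPM in unsorted cells. Even the members nearest to 0, COX5A at -0.34 and COX7C at -0.36, lay past the 0.8 limit. COX7C had 456 CPM in CD49a-positive, 589 CPM in CD49a-negative and 526 CPM in unsorted cells. With every cell weighted equally, however, its log2 ratio turned to 0.024.

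In complex V, 17 of 17 measured members lay below 0 and 14 had a ratio of 0.8 or less, with a median of -0.49. ATP5ME, a membrane subunit that helps join the synthase into dimers, had 155 CPM in CD49a-positive, 240.4 CPM in CD49a-negative and 217 CPM in unsorted cells. The peripheral stalk subunits ATP5PD and ATP5PO had log2 ratios of -0.59 and -0.58, while ATP5PB of the same stalk had -0.17. ATP5MC3, a gene for the rotor ring subunit c, had 229.6 CPM in CD49a-positive, 337 CPM in CD49a-negative and 259.7 CPM in unsorted cells. ATP5F1A (chromosome 18, 46080248 to 46104334), the alpha subunit of the catalytic head, differed least, with 175 CPM in CD49a-positive, 183 CPM in CD49a-negative and 189 CPM in unsorted cells. Summed over complexes I to V, the CD49a-positive to CD49a-negative folds were 0.710 for complex I, 0.841 for complex II, 0.774 for complex III, 0.701 for complex IV and 0.752 for complex V.

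Over all kept cells, the sorted populations lay on opposite sides of the unsorted cells. CD49a-positive over unsorted had a median log2 ratio of -0.22, with 77 of 79 members below 0 (55.6% of all genes) and 14 at a ratio of 0.8 or less (3.06% of all genes). At least 25% higher were 0 members (1.87%). NDUFA3, an accessory complex I subunit, was farthest below at -0.55, and UQCRH, the hinge protein of complex III, was highest at 0.04. CD49a-negative over unsorted had a median of 0.21, with 2 members below 0 (47.7% of all genes), NDUFS1 and ATP5F1A, 7 at least 25% higher (2.04% of all genes) and 0 at a ratio of 0.8 or less (1.66%). NDUFA7 was highest there at 0.44. These comparisons share libraries with the first one.

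Cell mix differed between the libraries, and so the members were also compared within cell classes. Clusters of cells were named from marker genes, with a rule set after the clusters were seen. Of the 1261 alpha-like cells, 654 came from cluster 6, in which 5 alpha markers and 1 epsilon or PP marker stood at 1.5-fold or more over other cells. Its mean log2 ratio over detected markers was 0.87 for alpha and 1.95 for epsilon or PP, of which fewer than 3 were detected. Cluster 6 became alpha-like once classes with so few detected markers were disregarded. Beta-like cells made up 70.1% of CD49a-positive, 20.1% of CD49a-negative and 34.6% of unsorted cells. Alpha-like cells, the glucagon class, made up 10.3%, 27.9% and 20.6% in that order. Cells named for the serotonin-making enterochromaffin cells of the gut made up 3.30%, 19.8% and 19.4%. Of the 88 members only COX7B2 was among the 2000 variable genes behind the clusters.

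The sorted libraries lay close together in beta-like cells. The summed level was 13757 CPM (13733 to 13782) in CD49a-positive, 13877 CPM (13818 to 13936) in CD49a-negative and 14944 CPM (14907 to 14980) in unsorted beta-like cells, a CD49a-positive to CD49a-negative fold of 0.991 (0.987 to 0.996). The median log2 ratio was -0.04, against -0.02 for all genes, and 59 of 79 members lay below 0, against 57.2% of all genes. At a ratio of 0.8 or less were 0 members (1.62% of all genes), and at least 25% higher were 0 members (1.19%). In UMIs per cell the members had 705 in CD49a-positive, 541 in CD49a-negative and 824 in unsorted beta-like cells, at median depths of 50660, 36522 and 51030 UMIs. With no scaling for depth the median log2 ratio was therefore 0.31, and with every cell weighted equally it was 0.050. Both sorted libraries lay below the unsorted one in this class, with summed folds of 0.921 for CD49a-positive and 0.929 for CD49a-negative. Of the 79 members, 70 and 65 lay below 0 in that order, against 45% and 41.2% of all genes. The class joined clusters of different levels in unequal parts. Cluster 7, the lowest, held 32.5% of the CD49a-positive, 50.9% of the CD49a-negative and 40.5% of the unsorted beta-like cells, and cluster 1 held 31.3%, 16.1% and 26.3% in that order.

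The members farthest apart in beta-like cells were still close. NDUFS7 had 72.7 CPM in CD49a-positive, 86.6 CPM in CD49a-negative and 89.4 CPM in unsorted beta-like cells, the lowest log2 ratio at -0.22. COX5B had 167, 194 and 193 CPM in that order. UQCRH, at 0.20, was the highest. COX8A, at -0.63 over all kept cells, had 318 CPM in CD49a-positive, 322 CPM in CD49a-negative and 356 CPM in unsorted beta-like cells. NDUFA4, at -0.59 over all kept cells, had 65.5 CPM in both CD49a-positive and CD49a-negative beta-like cells and 72.7 CPM in unsorted ones.

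In enterochromaffin-like cells the members were lower in the CD49a-positive library. Their summed level was 12956 CPM (12829 to 13084) in CD49a-positive, 20158 CPM (20083 to 20233) in CD49a-negative and 15828 CPM (15767 to 15890) in unsorted cells of this class, a CD49a-positive to CD49a-negative fold of 0.643 (0.636 to 0.650). The median log2 ratio was -0.62, against -0.03 for all genes. Below 0 lay 77 of 79 members (52.8% of all genes), and 72 had a ratio of 0.8 or less (19.6% of all genes). At least 25% higher were 0 members (13.4%), and at a ratio of 0.5 or less 1 member, NDUFC1 (0.371%). The CD49a-positive class held 79 cells, against 391 CD49a-negative and 437 unsorted cells.

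NDUFC1 was farthest below in this class, at 81.1 CPM in CD49a-positive, 175 CPM in CD49a-negative and 135 CPM in unsorted enterochromaffin-like cells, a fold of 0.463 (0.404 to 0.527). NDUFA4 had 73.9, 143 and 106 CPM in that order. The 2 members above 0 were NDUFS1 and NDUFS4, a complex I accessory subunit at a log2 ratio of 0.10. NDUFS1 had 106 CPM in CD49a-positive, 101 CPM in CD49a-negative and 105 CPM in unsorted cells. INS, one of the beta marker genes, stood at 23051 CPM in CD49a-positive, 8925 CPM in CD49a-negative and 13074 CPM in unsorted enterochromaffin-like cells. The source of this INS, such as carried RNA, cell pairs or the cells' own transcripts, was not tested. The part of carried RNA or of cell pairs in the members' difference was not tested either.

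By the CD49a-positive to CD49a-negative fold, alpha-like cells lay between beta-like and enterochromaffin-like cells. The summed level was 13933 CPM (13859 to 14007) in CD49a-positive, 18865 CPM (18809 to 18920.2) in CD49a-negative and 16744 CPM (16688 to 16801) in unsorted alpha-like cells, a CD49a-positive to CD49a-negative fold of 0.739 (0.734 to 0.743). The median log2 ratio was -0.41, against 0.02 for all genes, with 77 of 79 members below 0 (46.8% of all genes) and 58 at a ratio of 0.8 or less (10.5% of all genes). At least 25% higher were 0 members (12.5%). COX5B was lowest at -0.58, with 175 CPM in CD49a-positive, 267 CPM in CD49a-negative and 215 CPM in unsorted alpha-like cells. NDUFS1 was highest at 0.11, with 96.4, 88.6 and 98.1 CPM in that order, and SDHB was the other member above 0. MALAT1, a nuclear RNA, stood at 19124 CPM in CD49a-positive, 15899 CPM in CD49a-negative and 17975 CPM in the unsorted cells of this class. Its part in the members' difference was not tested.

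**Figure D2:**
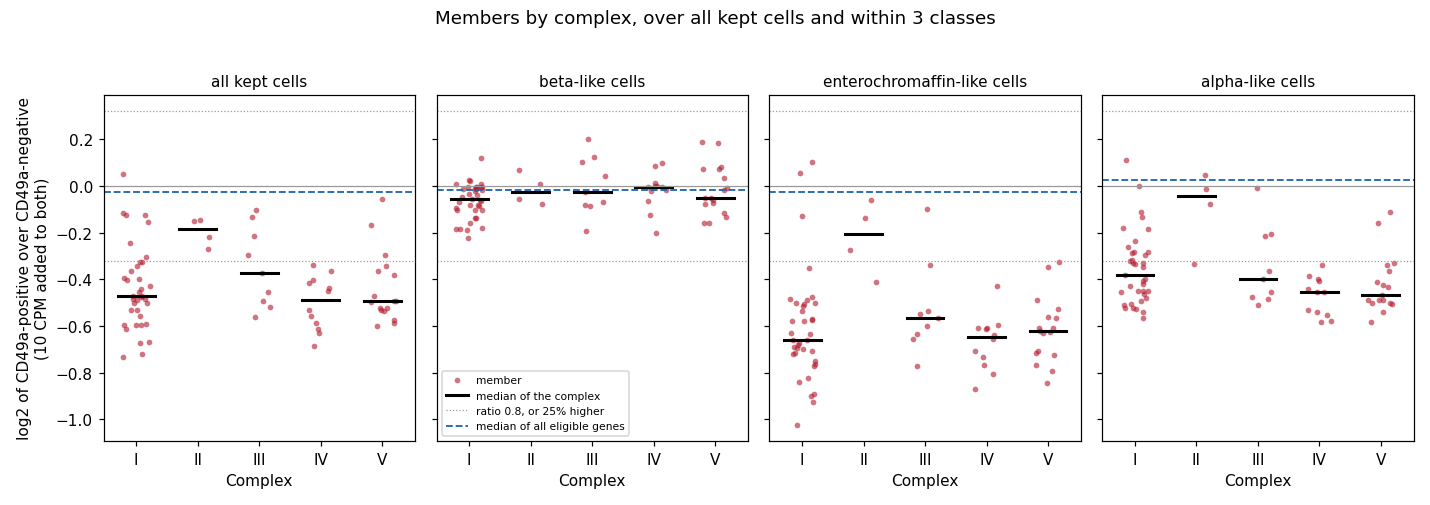
Log2 ratio of CD49a-positive over CD49a-negative with 10 CPM added to both (vertical axis) for each member, by complex along the horizontal axis, in panels for all kept cells and for 3 classes, with black lines for each complex's median, a dashed line for the median of all genes and dotted lines at a ratio of 0.8 and at 25% higher. The medians of complexes I, III, IV and V lie between -0.37 and -0.49 over all kept cells and close to 0 in beta-like cells.

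By complex, the median log2 ratios in enterochromaffin-like cells were -0.66 for complex I, -0.21 for complex II, -0.57 for complex III, -0.65 for complex IV and -0.62 for complex V. In alpha-like cells the medians were -0.38, -0.04, -0.40, -0.45 and -0.47 in the same order. Complex II, with 4 members, lay nearest to 0 in both.

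Single cells of a library were spread widely. The median share of a cell's UMIs that came from the members was 1.41% in CD49a-positive, 1.75% in CD49a-negative and 1.60% in unsorted cells. In enterochromaffin-like cells it was 0.834%, 1.66% and 1.21% in that order, with quartiles of 0.345 and 1.73% in CD49a-positive and 0.645 and 2.59% in CD49a-negative cells. Alpha-like cells had 1.27%, 1.77% and 1.57%. Beta-like cells had 1.39% in CD49a-positive, 1.23% in CD49a-negative and 1.44% in unsorted cells, so by this measure the CD49a-negative beta-like cells were lowest.

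**Figure D3:**
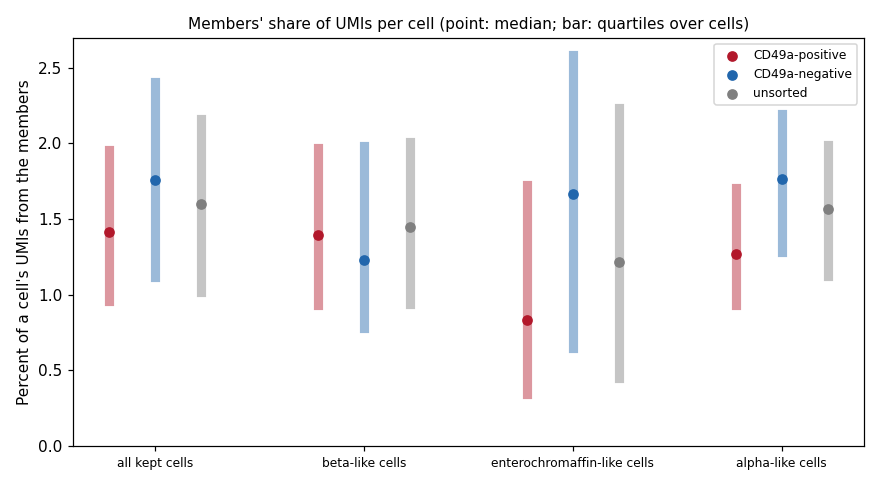
Percent of a cell's UMIs that came from the 88 members (vertical axis), by class and library (horizontal axis), with points for the median over cells and bars for the quartiles. CD49a-negative cells have the highest median over all kept cells (1.75%) and in enterochromaffin-like (1.66%) and alpha-like cells (1.77%), but not in beta-like cells (1.23%).

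Clusters differed more from each other than the libraries did. Pooled over libraries, the summed level ran from 9724 CPM in cluster 7, a beta-like cluster led by PTH2R, CCSER1 and CCBE1, to 40834 CPM in cluster 14, led by HHEX, SST and PLAC9. Clusters 10 and 14, the highest, had median depths of 3771 and 4082 UMIs per cell and low mitochondrially encoded RNA, 27439 and 15733 CPM. Cluster 11, led by CGA and CARTPT, followed at 26894 CPM with a median depth of 37938 UMIs. Over the 17 clusters, which share libraries and clustering, the nuclear and the mitochondrially encoded summed levels had a Pearson correlation of -0.826. The shallow clusters 10 and 14 had both the highest nuclear and the lowest mitochondrially encoded levels of the 17. How far the correlation rests on them was not tested.

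Within clusters, the CD49a-positive cells were below the CD49a-negative cells in 16 of 17, with the interval of the fold below 1 in 15. The rest of the 16 was cluster 1, nearly equal at 13625.4 CPM in CD49a-positive and 13625.7 CPM in CD49a-negative cells. The folds ran from 0.449 (0.428 to 0.471) in cluster 16, which held 8 CD49a-positive cells, to 1.10 (1.05 to 1.14) in cluster 14. Cluster 4, led by RGS5, FEV and CBLN1 and left without a class name, had 19534 CPM in CD49a-positive, 25968 CPM in CD49a-negative and 21389 CPM in unsorted cells. The beta-like clusters 0, 1, 7 and 10 had folds of 0.906, 1.0, 0.934 and 0.976, against the 0.991 of the whole class.

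**Figure D4:**
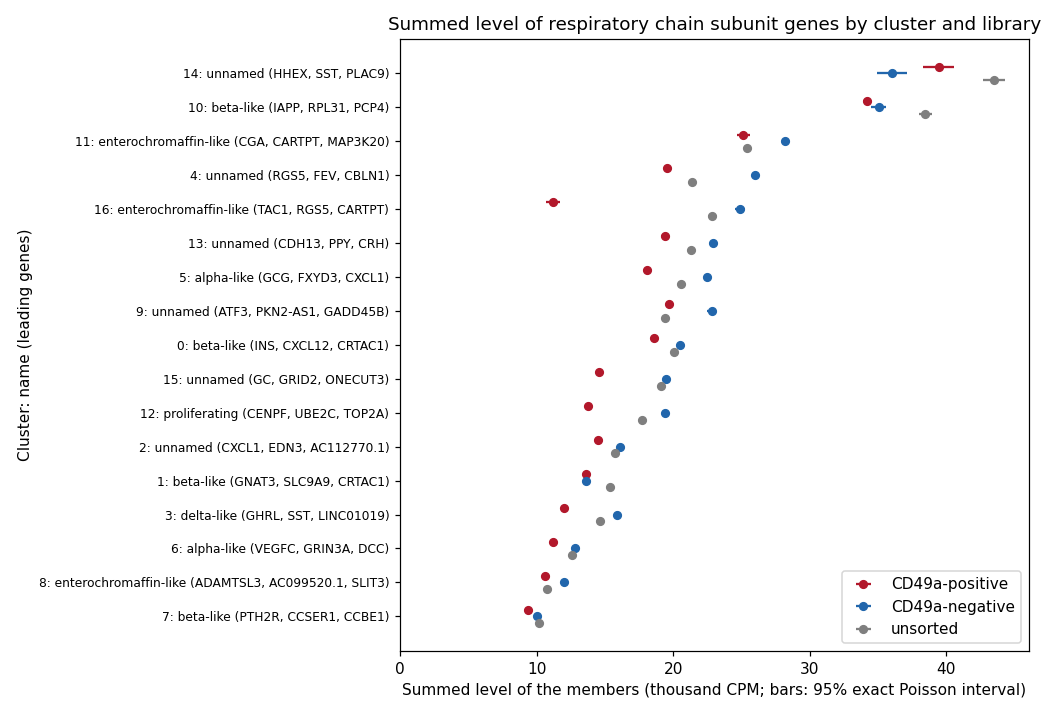
Summed level of the 88 members (horizontal axis, in units of 1000 CPM) in each of 17 clusters, ordered by pooled level, 1 point per library with 95% exact Poisson intervals. Clusters run from 9724 CPM to 40834 CPM pooled. CD49a-positive cells lie below CD49a-negative cells in 16 of 17, though nearly equal to them in cluster 1 (13625.4 and 13625.7 CPM).

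The enterochromaffin-like class joined clusters with very different levels. Cluster 8, led by ADAMTSL3 and SLIT3, had 10595 CPM in CD49a-positive, 11993 CPM in CD49a-negative and 10782 CPM in unsorted cells. Cluster 11 had 25137 CPM in CD49a-positive, 28154 CPM in CD49a-negative and 25384 CPM in unsorted cells. All 79 measured members were higher in cluster 11 than in cluster 8 (50.9% of all genes were), from NDUFS1 at 0.01 to NDUFA4 at 1.76, with a median log2 ratio of 1.19. Cluster 8 held 73.4% of the CD49a-positive, 57.3% of the CD49a-negative and 68.0% of the unsorted cells of the class, and cluster 11 held 16.5%, 35.5% and 24.5% in that order. Cluster 16, led by TAC1, RGS5 and CARTPT, held the rest, 8 CD49a-positive, 28 CD49a-negative and 33 unsorted cells, with 11167 CPM in CD49a-positive, 24880 CPM in CD49a-negative and 22871 CPM in unsorted cells.

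Within clusters the CD49a-positive to CD49a-negative folds were 0.883 (0.871 to 0.896) in cluster 8 and 0.893 (0.877 to 0.909) in cluster 11, nearer to 1 than the 0.643 of the whole class, and 0.449 (0.428 to 0.471) in cluster 16, farther from 1. With clusters 8 and 11 weighted equally, the median log2 ratio of the class was -0.19 and 11 members had a ratio of 0.8 or less (8.14% of all genes). With cluster 16 weighted equally as well, the median was -0.45 and 60 members had such a ratio (18.7%), so the equal weighting rested on 8 CD49a-positive cells. Without cluster 16 the summed class had a median of -0.58 with 70 members (19.2%). The alpha-like class was built likewise. Cluster 5, led by GCG, had 18091 CPM in CD49a-positive and 22463 CPM in CD49a-negative cells. Cluster 6, led by VEGFC, had 11200.5 and 12810 CPM in that order.

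Cluster 6 held 62.8% of the CD49a-positive and 46.5% of the CD49a-negative alpha-like cells, and cluster 5 held 37.2% and 53.5%. With the 2 clusters weighted equally the alpha-like median was -0.25, with 17 members at a ratio of 0.8 or less (4.62% of all genes). Without cluster 6 the median was -0.30, with 32 members (9.69%). In beta-like cells equal weights for the clusters gave -0.11 and 2 such members (2.12%). The members' median kept its sign under each of these weightings except in beta-like cells with every cell weighted equally.

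Tissue isoforms were at very low counts. Complex IV has pairs of genes in which a second copy serves muscle, lung or testis. COX4I2, the lung and hypoxia form, had 20 UMIs in all kept cells together, against 90180 for COX4I1, or 0.0222% of the pair (exact binomial interval 0.0135 to 0.0342%). The muscle forms COX6A2 and COX7A1 had 39 and 108 UMIs, against 78484 for COX6A1 and 134072 for COX7A2. COX6B2, COX7B2 and COX8C, known from testis, had 80, 29 and 24 UMIs.

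NDUFA4L2, a hypoxia-induced relative of NDUFA4, was the isoform with the highest share of its pair, 540 UMIs or 2.02% (1.86 to 2.20%). It stood at 1.58 CPM in CD49a-positive, 2.06 CPM in CD49a-negative and 1.58 CPM in unsorted cells. UQCRHL and ATP5MGL, near copies of UQCRH and ATP5MG, had 279 and 163 UMIs, which may include reads of the parent genes. These 9 genes are the members that did not reach 10 CPM.

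Subunit c of complex V is made from 3 genes that encode the same mature protein. Of their UMIs, ATP5MC1 took 27.3% in CD49a-positive, 28.4% in CD49a-negative and 28.7% in unsorted enterochromaffin-like cells. In alpha-like cells its share was 18.9%, 18.3% and 18.1% in that order, and in beta-like cells 22%, 22.1% and 21.9%. The share thus differed between classes by more than between libraries within a class.

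Other genes of the pathway were followed as lists. The 13 mitochondrially encoded subunits had a median log2 ratio of 0.07 over all kept cells. Of these subunits, 4 lay below 0 (55.2% of all genes) and 2 were at least 25% higher (5.99% of all genes). Their summed level was 84442 CPM in CD49a-positive, 78548 CPM in CD49a-negative and 80671 CPM in unsorted cells. Among them MT-ND1 had 2884 CPM in CD49a-positive, 2225 CPM in CD49a-negative and 2593 CPM in unsorted cells, and MT-CO1 had 12413, 12714 and 12128 CPM. In beta-like cells the medians were -0.04 for the nuclear and -0.07 for the mitochondrial subunits, in enterochromaffin-like cells -0.62 and 0.13, and in alpha-like cells -0.41 and 0.15.

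For the counts that follow, 55.2% of all genes lay below 0 and 11.8% had a ratio of 0.8 or less. Among 46 measured assembly factors, 33 were below 0 and 9 had a ratio of 0.8 or less, the median being -0.13. UQCC2, an assembly factor of complex III, had 91.0 CPM in CD49a-positive, 159 CPM in CD49a-negative and 118 CPM in unsorted cells, and NDUFAF3 of complex I had 63.6, 106 and 82.4 CPM. COX20 and COX10 were the highest, at 0.17 and 0.14. Of the 14 carriers and exchange proteins, 12 were below 0, with ATP5IF1, the inhibitor of ATP synthase, and HIGD1A lowest at -0.60 and -0.50 and ETFDH and ETFA highest at 0.20 and 0.00.

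The 19 genes of the tricarboxylic acid cycle and of pyruvate entry had a median of -0.21, from the pyruvate carrier genes MPC2 and MPC1 at -0.52 and -0.38 to SUCLG2 at 0.14 and CS at 0.07. Glycolysis had 12 of 14 genes below 0 and a median of -0.29. ENO2 and GAPDH were lowest at -0.73 and -0.64, and PFKL, a phosphofructokinase gene, lay above 0 at 0.07. The 12 measured regulators of nuclear respiratory genes had a median of 0.07, from POLRMT at -0.10 and TFAM at -0.03 to NRF1 at 0.15 and ESRRG at 0.20.

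Lists outside the respiratory chain also had medians below 0. Mitochondrial ribosomal protein genes had 71 of 76 members below 0, 32 of them at a ratio of 0.8 or less, and a median of -0.30, with MRPS6 and MRPL57 lowest at -0.60 and -0.59 and MRPL42 and MRPL3 highest at 0.05 and 0.07. Proteasome genes had 29 of 35 below 0, 11 at such a ratio, and a median of -0.25, with PSMB6 and PSMA7 lowest at -0.62 and -0.61 and PSMD5 and PSMD12 highest at 0.12 and 0.13. Cytosolic ribosomal protein genes had 56 of 77 below 0, 6 at such a ratio, 3 at least 25% higher, and a median of -0.10, with RPS26 and RPL19 lowest at -0.45 and -0.35 and RPL23 highest at 0.52. In beta-like cells that last median was 0.11, in enterochromaffin-like cells -0.35 and in alpha-like cells -0.36.

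The length of a gene moved with its ratio. Over all kept cells, genes that span under 10 kb had a median log2 ratio of -0.24, those of 10 to 50 kb -0.07, those of 50 to 200 kb 0.07 and those over 200 kb 0.14. The members had medians of -0.50 (34 genes), -0.41 (40 genes) and -0.22 (5 genes) in the first 3 of these bins. In the classes the medians of all genes spread more widely, in the same order of bins -0.38, -0.13, 0.13 and 0.33 in enterochromaffin-like and -0.27, -0.06, 0.16 and 0.33 in alpha-like cells. Among genes under 10 kb, 91.1% lay below 0 in enterochromaffin-like and 92.2% in alpha-like cells. The members' medians were -0.67, -0.60 and -0.27 in enterochromaffin-like and -0.45, -0.34 and -0.18 in alpha-like cells. Over the 79 members, which share libraries and totals, the Pearson correlation of the ratio with log10 span was 0.455 over all kept cells, 0.486 in enterochromaffin-like, 0.472 in alpha-like and 0.0764 in beta-like cells. The members' medians were thus below those of all genes in these 3 bins over all kept cells and in both classes, and the part of gene span in their difference was not tested further.

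**Figure D5:**
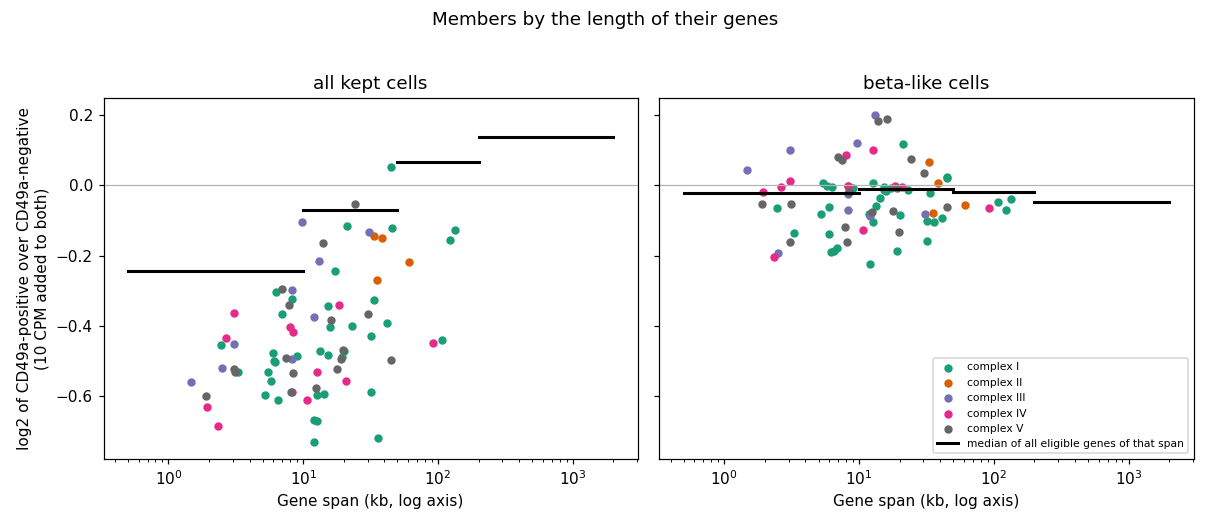
Log2 ratio of CD49a-positive over CD49a-negative with 10 CPM added to both (vertical axis) against the genomic span of each member (horizontal log axis, kb), over all kept cells and in beta-like cells, coloured by complex, with black lines for the median of all genes in each span bin. Over all kept cells the medians of all genes climb with span, from -0.24 to 0.14, and most members lie below the line of their bin.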

How the data were processed

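UMI counts were measured in 3 droplet single-cell libraries, 1 per sorting group, which followed the labels. Per the submitters' processing notes, the authors made the deposited UMI counts, which are whole numbers for each gene in each barcode, with Cell Ranger 7.1.0 on GRCh38. Whether intronic reads were counted, and the annotation release, are not given in the sources used here. Such counts can split reads between near-identical copies or overlapping genes. Library totals were 127119509 (CD49a-positive), 88397368 (CD49a-negative) and 114479071 (unsorted) UMIs in 4512, 2566 and 2811 barcodes.

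A barcode was kept if it held 1000 or more genes and if 20% or less of its UMIs were mitochondrial. Scrublet as run by scanpy called 8 of 6626 cells (0.121%), all unsorted, which were removed. With so few calls it did not work, and cell pairs remained. Counts scaled to 10000 per cell and log-transformed gave clusters over all libraries from 2000 variable genes, 30 principal components, 20 neighbours and Leiden resolution 1 (Python 3.11.15, scanpy 1.11.5, anndata 0.12.19, scikit-learn 1.9.0, igraph 0.11.9, numpy 2.4.6, scipy 1.17.1, pandas 2.3.3, matplotlib 3.10.9, seed 0). A class name needed at least 3 detected markers at 1.5-fold over other cells, a lead of 0.5 mean log2 over the next class with 3 detected markers, and no other class with as many of the 10 leading genes; shallow clusters needed a marker among those 10. A cluster was proliferating with at least 5 such markers. Cells without a name were 12.3% of CD49a-positive, 25.1% of CD49a-negative and 19.8% of unsorted cells.

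UMIs were summed per library and class and expressed as CPM. Sums carry exact Poisson intervals, ratios exact conditional ones and shares exact binomial (Clopper-Pearson) ones. For log2 ratios 10 CPM were added in each library, and genes needed a mean of 10 CPM over the 3 libraries. Gene positions came from GENCODE release 29 on GRCh38, matched by identifier for all 88 members, and may not be those behind the counts. The fold rule and the intervals were checked only on simulated Poisson counts, which hold no spread between cells or libraries beyond counting error. Folds were planted only in genes well above the 10 CPM minimum, so the check does not cover genes near it. Named were, in each complex, the 4 lowest and 2 highest members by the ratio over all kept cells, isoform pairs, members under 10 CPM and the 2 lowest and 2 highest genes of each other list. Some genes this rule names are not reported here. Genes named in other comparisons, for being at an end of a class or a cluster, were chosen after their values were seen. The members and lists were chosen with earlier results of these data known.

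Alternatives were another added CPM, no filter on low genes, other scalings and weights, other cell filters and cluster resolutions, and a fixed depth. Settings without shallow clusters, without the highest doublet scores, with clusters weighted equally, with another cluster in the enterochromaffin-like class and without cluster 16 or cluster 6 in their classes were added after seeing the data.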

Additional observations from a re-analysis of the deposited data

Results flagged for a closer look

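Complex III and complex V summed folds of CD49a-positive over CD49a-negative lay on opposite sides of 1 in different classes. For complex III the fold was 1.04 in beta-like, 0.668 in enterochromaffin-like and 0.749 in alpha-like cells. For complex V it was 1.01 in beta-like, 0.656 in enterochromaffin-like and 0.724 in alpha-like cells. The median log2 ratios over their members in beta-like cells were -0.03 for complex III and -0.05 for complex V, against -0.02 for all genes. Below 0 lay 5 of 9 members of complex III and 11 of 17 of complex V, against 57.2% of all genes. With 1 library per group, these differences between classes were not tested.

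Cluster 14, led by HHEX, SST and PLAC9, was the cluster in which the members' summed level was higher in CD49a-positive than in CD49a-negative cells, 39420.1 CPM in 30 CD49a-positive cells and 35993 CPM in 25 CD49a-negative cells, a fold of 1.10. Its median depth was 2897.5 UMIs in CD49a-positive and 4582 UMIs in CD49a-negative cells, and the difference from other clusters was not tested.

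Barcodes left out for having under 1000 genes were more frequent in the CD49a-positive library, at 1988 of its barcodes, against 412 CD49a-negative and 368 unsorted barcodes. In them the members summed to 20686 CPM in the CD49a-positive, 7218 CPM in the CD49a-negative and 7915 CPM in the unsorted library. Mitochondrially encoded RNA in the same barcodes stood at 281746 CPM in CD49a-positive, 681423 CPM in CD49a-negative and 653299 CPM in unsorted barcodes. Of the remaining, non-mitochondrial UMIs the members took 28800 CPM, 22656 CPM and 22828 CPM in that order.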

How the results depend on the processing

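No paired analysis was possible because each group had 1 library, and leaving a library out in turn was not possible either. No alternative gave the members a median of the opposite sign over all kept cells, in enterochromaffin-like or in alpha-like cells. The causes of the moves below were not tested.

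In this section, percents in brackets give the share of all genes past the same limit in the same setting. The median log2 ratio of CD49a-positive over CD49a-negative over all kept cells was -0.47, with 61 members at a ratio of 0.8 or less (11.8%). Over the alternatives the median ran from -0.50 to -0.20. It was -0.37 with 50 CPM added and -0.50 when cells needed 2000 genes and no more than 10% mitochondrial UMIs. With each cell weighted equally it was -0.21 with 19 members (8.64%), and in UMIs per cell with no scaling -0.22 with 16 (3.03%). With clusters of at least 10 cells weighted equally it was -0.20 with 7 (2.19%). Clusters of any size weighted equally gave -0.24 with 13 (3.18%). The log2 ratio of COX7C turned to 0.024 with each cell weighted equally.

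CD49a-positive over unsorted, -0.22 with 14 members past the lower limit (3.06%), was -0.16 with 5 members (1.01%) at 50 CPM added. With cells weighted equally it was -0.11 with 3 members (4.38%). In that setting the members passed the limit no more often than all genes. The median was -0.15 with 6 (2.21%) for no scaling and -0.14 with 3 (0.666%) for clusters weighted equally. Clusters of any size weighted equally gave -0.18 with 7 (1.09%). CD49a-negative over unsorted, 0.21 with 7 members at least 25% higher (2.04%), was 0.17 with 2 members (0.559%) at 50 CPM added. Without INS in the totals it was 0.18. It was 0.10, 0.031, 0.041 and 0.049 for cells weighted equally, no scaling, clusters weighted equally and those of any size. Each of these settings had 0 members (0.616%, 0.295%, 0.284% and 0.312% in that order). The stricter cell filter gave 12 members (2.42%).

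In beta-like cells the median, -0.04 with 0 members at a ratio of 0.8 or less (1.62%), was 0.050 for cells weighted equally. With no scaling it was 0.31, and at 10000 UMIs per cell 0.0024 with 1 member (3.70%). Clustering resolution 0.5 gave -0.11 with 1 member (1.73%), and clusters weighted equally -0.11 with 2 members (2.12%). The direction of the median thus depended on these settings.

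In enterochromaffin-like cells the median, -0.62 with 72 members (19.6%), was -0.52 at 50 CPM added and -0.55 for cells weighted equally. With no scaling it was -0.49, and at resolutions 0.5 and 2 it was -0.41 and -0.48. With the cluster led by RGS5, FEV and CBLN1 included it was -0.41. Clusters weighted equally gave -0.19 with 11 members (8.14%). That weighting left out cluster 16, which held 8 CD49a-positive cells, and with it the median was -0.45. In alpha-like cells the median, -0.41 with 58 members (10.5%), was -0.34 at 50 CPM added and -0.36 for cells weighted equally. With no scaling it was -0.52, and at resolutions 0.5 and 2 it was -0.34 and -0.35. Clusters weighted equally gave -0.25 with 17 members (4.62%), and leaving out cluster 6 gave -0.30 with 32 members (9.69%).

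Depth limits the isoforms, and the 79 CD49a-positive enterochromaffin-like cells, 8 of them in cluster 16, are few. Intervals cover counting error only.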
